A study of Homo sapiens with 36 samples.

Results

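The genes described here are the cadherins and protocadherins of human neural stem cells, taken as every gene symbol of the count table made of CDH followed by a number or of PCDH followed by digits or capital letters, without PCDH11Y. The rule used names only and selected 93 of the 28516 symbols. They comprise 23 CDH genes, 13 solitary protocadherin genes and 57 genes of the protocadherin clusters on chromosome 5, of which 15 belong to the alpha, 19 to the beta and 23 to the gamma cluster. The beta and gamma counts take in pseudogene symbols, such as PCDHB19P and PCDHGB8P. Reads summed to at least 10 over all libraries for 90 of the 93 genes, and these were tested. The other 3 were CDH16 with 6 reads, PCDHX with 1 read and PCDHGB4 with 0 reads over all libraries.

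Gene expression was measured by poly-A RNA sequencing in cultured hNSC, a purchased line of human neural stem cells, 48 h after lentiviral infection. In the groups MEIS1-OE, MEIS2-OE and ctrl-OE (labelled CRISPRa_MEIS1, CRISPRa_MEIS2 and CRISPRa_ctrl) cells received 3 viruses that together encode CRISPR activation. These carried a cleavage-dead Cas9 fused to VP64, the MPH activator and a single guide for the homeobox gene MEIS1, for its paralog MEIS2, or a non-targeting guide. In MEIS1-KO, MEIS2-KO and ctrl-KO (CRISPR-KO_MEIS1, CRISPR-KO_MEIS2 and CRISPR-KO_ctrl) active Cas9 and the guide were on the same vector, with a mix of 2 guides for MEIS1 or for MEIS2, or non-targeting guides. Each group had 6 libraries of 15429985 to 22940493 reads assigned to genes. All libraries thus came from infected cells of one line, selection of infected cells is not described in the sources used here, and the labels do not tell whether libraries of a group came from separate cultures, so p-values measure the spread between these libraries. The targeted genes followed the labels: MEIS1 lay between 287 and 323 CPM (read counts scaled to a common library size) in MEIS1-OE against 15.7 to 18.8 in ctrl-OE, and between 6.43 and 11.2 in MEIS1-KO against 23.7 to 28 in ctrl-KO. MEIS2 reached 793 to 852 CPM in MEIS2-OE against 20.5 to 24.1 in ctrl-OE, and 10.54 to 13.4 in MEIS2-KO against 23.5 to 27.4 in ctrl-KO. MEIS1-OE replicate 3, MEIS1-KO replicate 6 and ctrl-OE replicate 6 stood apart from their groups over all genes, and counts without them are given with each comparison they enter.

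Cadherins are cell surface proteins that bind, through extracellular repeats and calcium, mostly to the same or a related cadherin on a neighbouring cell. Classical cadherins of type I, such as N-cadherin (CDH2) in neuroepithelium and E-cadherin (CDH1) in epithelium, and of type II, such as CDH6, CDH8 and CDH11, tie this contact to actin through catenins, and the set of type II cadherins a cell makes is known to sort neural cells by region. Solitary protocadherins of the delta-1 (PCDH1, PCDH7, PCDH9, PCDH11X) and delta-2 families (PCDH8, PCDH10, PCDH17, PCDH18, PCDH19) act in neural adhesion and migration. In the alpha and gamma clusters each variable exon with its own promoter is spliced to constant exons shared by the whole cluster, beta genes consist of a single coding exon, and cells choose among these promoters to acquire a surface identity. CTCF and cohesin, which hold distant DNA together in loops, are known to act at most of these promoters.

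Sequences are shown for promoters that bear on the results below: those of PCDHAC1 and PCDHAC2, the clustered genes that were higher in ctrl-OE than in ctrl-KO, that of the alpha gene PCDHA4, which was lower, and that of CDH20, the gene that passed in the most MEIS comparisons. Of the 93 genes, 69 had a RefSeq promoter entry (GRCh38.p14), and the 250 bases before each start printed here match the GRCh37 genome exactly, whose coordinates are given. Capitals mark TGNCGCT, a string picked after looking at the cluster promoters, which holds the CGCT core of the conserved element known from these promoters. PCDHA4 lies at chr5:140186403-140186652, PCDHAC1 at chr5:140305634-140305883 and PCDHAC2 at chr5:140345811-140346060, all on the plus strand.
PCDHA4: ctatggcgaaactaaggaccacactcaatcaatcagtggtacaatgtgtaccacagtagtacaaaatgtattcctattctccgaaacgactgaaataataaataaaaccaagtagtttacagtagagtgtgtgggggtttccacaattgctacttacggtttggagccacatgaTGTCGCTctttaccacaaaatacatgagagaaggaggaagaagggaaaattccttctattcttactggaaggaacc
PCDHAC1: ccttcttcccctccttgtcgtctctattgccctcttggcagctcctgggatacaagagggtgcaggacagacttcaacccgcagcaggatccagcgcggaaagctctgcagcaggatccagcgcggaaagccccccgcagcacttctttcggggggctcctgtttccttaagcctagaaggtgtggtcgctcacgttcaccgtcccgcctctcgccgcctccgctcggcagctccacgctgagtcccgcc
PCDHAC2: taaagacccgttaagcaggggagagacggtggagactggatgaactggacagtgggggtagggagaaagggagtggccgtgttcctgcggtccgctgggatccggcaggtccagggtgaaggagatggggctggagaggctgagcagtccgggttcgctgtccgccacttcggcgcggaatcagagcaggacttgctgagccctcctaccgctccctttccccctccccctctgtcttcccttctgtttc
Searched on both strands, TGNCGCT was found in the 250 bases before the start of 30 of the 47 clustered genes that had an entry, among them PCDHA4 but neither PCDHAC1 nor PCDHAC2, and in 8.36% of all 35116 promoters of the table. The windows of PCDHAC1 and PCDHAC2 do hold the shorter CGCT, so only the full string is absent there. By cluster it was present in 10 of the 13 alpha, 12 of the 14 beta and 11 of the 25 gamma entries. Of the 24 clustered genes with an entry that were lower in ctrl-OE than in ctrl-KO, 16 held the string and 8 did not, PCDHGA10, PCDHGB6 and PCDHGB7 among the latter, and of the 20 that did not pass 13 held it. Shorter windows show the string with 11 flanking bases in genes of each cluster that held it and were lower in ctrl-OE than in ctrl-KO (PCDHB10, PCDHB14 and PCDHGA4 were picked after their values were seen), at chr5:140207484-140207512 for PCDHA6, chr5:140571874-140571902 for PCDHB10, chr5:140602837-140602865 for PCDHB14 and chr5:140734529-140734557 for PCDHGA4, plus strand.
PCDHA6: gagccgcatgaTGTCGCTgtctaccatga
PCDHB10: aggccacacggTGGCGCTgcaggctaaag
PCDHB14: gagacacatggTGGCGCTacaggataaga
PCDHGA4: aagactctgggTGTCGCTgttcaccaatc
For CDH20 at chr18:59000413-59000662, plus strand, capitals mark TGACAG, the core letters of MEIS motifs, which was found there on the opposite strand.
CDH20: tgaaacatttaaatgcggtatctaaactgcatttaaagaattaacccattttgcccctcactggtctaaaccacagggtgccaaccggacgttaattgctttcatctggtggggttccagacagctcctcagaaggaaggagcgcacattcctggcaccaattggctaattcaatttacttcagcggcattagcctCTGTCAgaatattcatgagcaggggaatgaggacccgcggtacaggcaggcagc
TGACAG was present in 4577 of the 35116 promoters of the table and in 5.75% of the 87 entries of these genes, those of CDH12, CDH19, CDH20, PCDHB16 and PCDHGB7. The CDH20 window also holds TGNCGCT, which is not marked there. A match only states that the letters are in the window, and none was tested as a binding site.

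The line was dominated by a small number of these genes. Mean CPM over all libraries was over 100 for 3 genes (CDH2, CDH6 and PCDH18), 10 to 100 for 19, 1 to 10 for 28 and under 1 for 43. Per kilobase of annotated exon, which allows levels to be compared between genes, CDH2 was highest in ctrl-KO with a mean of 79.4 CPM per kb. PCDH18 followed with 47.0, then the type II cadherin CDH24 with 16.1, PCDHB2 with 14.8, CDH6 with 11 and PCDH19 with 9.59 CPM per kb. In ctrl-OE the same measure was 50.7 for CDH2, 18.7 for CDH24, 15.8 for PCDH18, 12 for PCDHB2, 11.5 for CDH6 and 3.54 for PCDH19, so that CDH24 stood above PCDH18 there.

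N-cadherin was present and E-cadherin was at the detection limit, the pattern known for neural stem cells. CDH2 spanned 386 to 723 CPM over both control groups. CDH1 had 0 to 2 reads in every library. Of the 4 endothelial markers, TEK was at 14 to 17 CPM in ctrl-OE and 19.6 to 25.5 CPM in ctrl-KO while CLDN5 did not exceed 0.193 CPM in either, a point of reference for the vascular cadherin CDH5 at 15.3 to 21.8 CPM. CDH13, a cadherin anchored without a cytoplasmic tail, had 0 to 5 reads per library.

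Within each cluster a minority of genes carried most reads, as the plot of the clusters in gene order shows. PCDHB2 had 56.6 CPM at the lowest, 60.7 at the median and 65.4 at the highest in ctrl-KO. Per kilobase of exon not shared with other genes of the clusters, its ctrl-KO mean was 14.8, above PCDHB5 with 5.33, PCDHB16 with 4.30 and PCDHB15 with 2.88 CPM per kb. In the gamma cluster the same measure was 8.61 for PCDHGC3, 8.57 for PCDHGB6, 6.09 for PCDHGB7 and 4.62 for PCDHGA10. Alpha genes were lower, with PCDHA6 at 3, PCDHA12 at 1.26, PCDHAC2 at 1 and PCDHA4 at 0.897 CPM per kb. Reads in the constant exons of the alpha and gamma clusters fit every gene of the cluster, and beta genes resemble each other, so that the split of reads between clustered genes depends on the counting, whose overlap mode is not given in the sources used here.

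**Figure D1:**
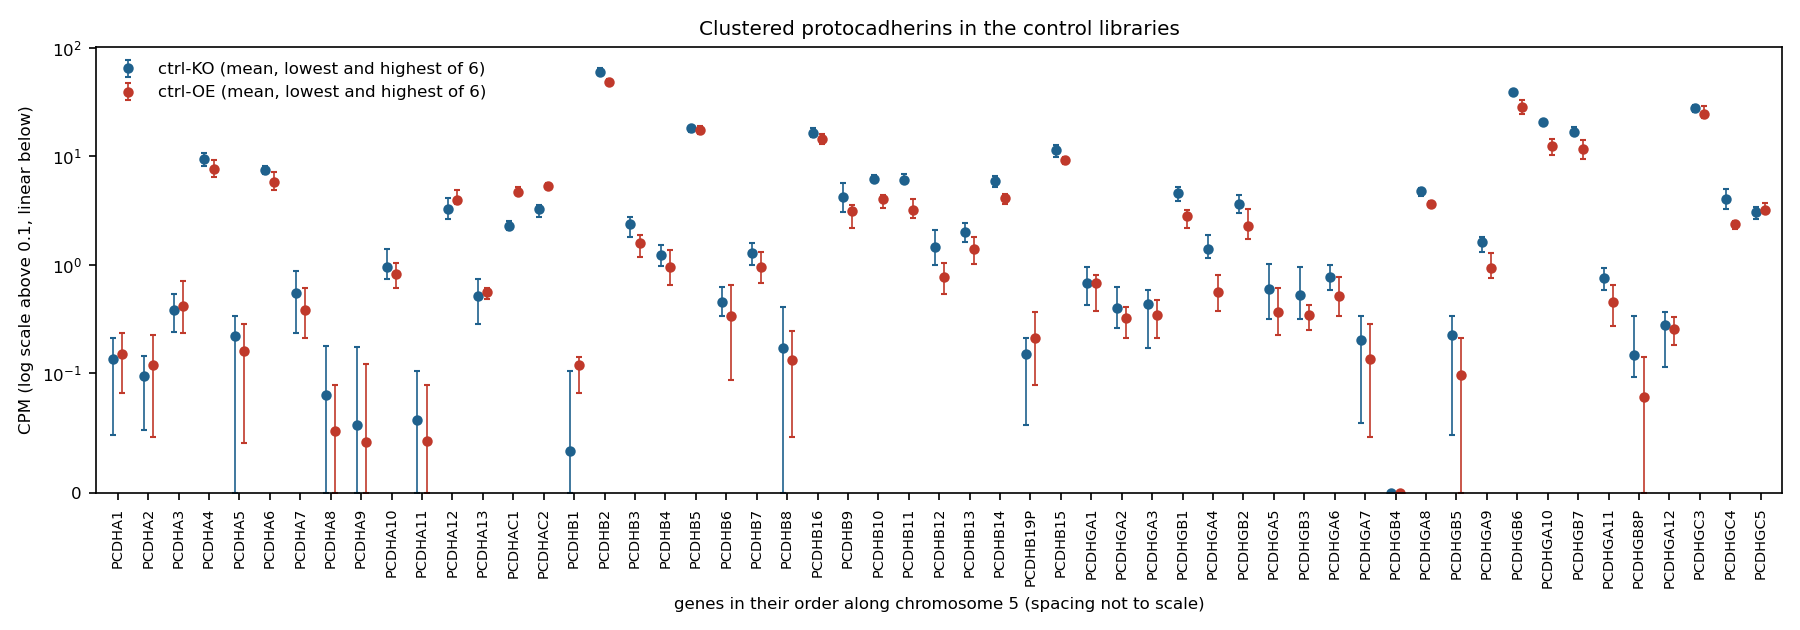
Level of 55 clustered protocadherins (CPM, log scale above 0.1 and linear below) in ctrl-KO (blue) and ctrl-OE (red), in gene order, with the mean and the lowest and highest of 6 libraries. PCDHB2 and PCDHGB6 have the highest CPM of their clusters. In ctrl-OE 25 of 56 tested genes are lower, against 23.9% of all genes, and PCDHAC1 and PCDHAC2 are higher.

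The comparison of MEIS1-OE with ctrl-OE asked which genes respond when MEIS1 is raised. Classical and solitary genes moved in both directions and clustered ones did not pass. CDH3 fell, and PCDH20, CDH24, PCDH12, PCDH1, CDH11 and CDH20 rose. PCDH10 and PCDH17, both of the delta-2 family, fell. These 9 of 90 tested genes (6 higher, 3 lower) compare with 9.1% (5.52% higher, 3.58% lower) of the 19689 genes tested in all, and their share is thus near that of all genes (edgeR quasi-likelihood test, Benjamini-Hochberg adjusted p under 0.05). The median log2 fold change of the 90 genes was 0.01 and that of all genes 0.00. Without the libraries that stood apart 10 genes passed, the added one being PCDHAC2, and in a fit of only the groups compared 3 did. Markers moved as well. SOX1, 1 of the 8 neural stem cell markers, fell in MEIS1-OE (-0.31 ± 0.10), as did the epithelial keratin KRT18 (-0.47 ± 0.13). The neuron markers SYT1 (0.26 ± 0.06) and GAP43 (0.39 ± 0.11) and the mesenchymal marker PDGFRB (0.30 ± 0.08) rose. The other neural stem cell, neuron and mesenchymal markers did not pass and went both ways. Examples are VIM (0.19 ± 0.07), MSI1 (0.21 ± 0.08) and PAX6 (-0.12 ± 0.10) of the stem cell markers. Of the neuron and mesenchymal markers they are DCX (-0.43 ± 0.38) and STMN2 (0.55 ± 0.72), and LUM (-0.10 ± 0.12) and DCN (0.67 ± 0.38). The part of the markers in these results was not tested.

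CDH3 encodes P-cadherin, a type I cadherin of epithelia. Its level was 5.94 CPM at the lowest, 7.11 at the median and 10.2 at the highest in ctrl-OE, and 4.14, 4.49 and 5.28 in MEIS1-OE. The ranges did not overlap, and the log2 fold change was -0.75 ± 0.11 (SE, adjusted p = 4.36e-06, edgeR). PCDH20, a solitary protocadherin, ranged from 6.02 through a median of 6.70 to 7.53 CPM in ctrl-OE and from 8.13 through 8.68 to 11.7 CPM in MEIS1-OE, again without overlap (log2 fold change 0.49 ± 0.09, adjusted p = 0.000177, edgeR). Both calls held in all 13 alternative fits.

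CDH24, a type II cadherin, had 62.3, 71.1 and 77.6 CPM as lowest, median and highest values in ctrl-OE and 73.4, 95.5 and 102 in MEIS1-OE. A log2 fold change of 0.39 ± 0.08 was obtained (adjusted p = 0.00118, edgeR), with 5 of 6 MEIS1-OE libraries above all ctrl-OE ones. MEIS1-OE replicate 3, one of the libraries that stood apart, was the lowest. The same library was the lowest for PCDH1, a delta-1 protocadherin at 37.8, 44.1 and 48.2 CPM in ctrl-OE and 38, 56.7 and 61.7 in MEIS1-OE (log2 fold change 0.32 ± 0.08, adjusted p = 0.00767, edgeR). PCDH12, known from endothelium, had a median of 6.62 CPM in ctrl-OE and 8.73 CPM in MEIS1-OE with overlapping ranges (log2 fold change 0.42 ± 0.12, adjusted p = 0.0146, edgeR). CDH11, a mesenchymal type II cadherin, had medians of 3.33 and 4.14 CPM (log2 fold change 0.34 ± 0.10, adjusted p = 0.0295, edgeR).

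Among the delta-2 genes, PCDH10 went from 4.25, 4.97 and 5.72 CPM (lowest, median, highest) in ctrl-OE to 2.59, 3.80 and 4.91 CPM in MEIS1-OE, with 5 of 6 libraries below all controls. Its log2 fold change was -0.45 ± 0.13 (adjusted p = 0.0152, edgeR). PCDH17 had medians of 19.8 and 16.8 CPM and overlapping ranges (log2 fold change -0.25 ± 0.08, adjusted p = 0.0437, edgeR). The calls of PCDH1, PCDH10, PCDH12, CDH11 and PCDH17 were lost in 2 to 5 of the 13 alternative fits, with adjusted p up to 0.0916, 0.121, 0.154, 0.112 and 0.243.

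CDH20, a type II cadherin with low levels in these cells, passed in both overexpression groups, in MEIS2-KO and in both contrasts that subtract the knockout effect from the overexpression effect. It had 0.540 CPM at the lowest, 0.959 at the median and 1.31 at the highest in ctrl-OE, and 13 to 54 reads per library over the whole series. In MEIS1-OE the corresponding values were 0.863, 1.55 and 2.33 CPM, and in MEIS2-OE 1.21, 1.69 and 1.95 CPM. MEIS1-OE overlapped the controls, with 4 of 6 libraries above all of them, and so did MEIS2-OE, with 5 of 6.

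The log2 fold change of CDH20 was 0.75 ± 0.21 in MEIS1-OE (adjusted p = 0.0175, edgeR) and 0.81 ± 0.21 in MEIS2-OE (adjusted p = 0.0375, edgeR), both against the same 6 control libraries. The MEIS1-OE call was lost in 4 of the 13 alternative fits (adjusted p up to 0.159), and the MEIS2-OE call whichever replicate number was left out (adjusted p 0.0636 to 0.157). In the knockouts CDH20 went the other way. ctrl-KO spanned 1.82, 2.30 and 2.76 CPM, MEIS1-KO 0.993, 1.38 and 1.94 CPM and MEIS2-KO 1.17, 1.49 and 1.81 CPM. MEIS2-KO lay below all controls (log2 fold change -0.68 ± 0.19, adjusted p = 0.0185, edgeR), a call lost in 3 of the 13 alternative fits (adjusted p up to 0.0659), whereas MEIS1-KO overlapped them in 2 libraries and did not pass (log2 fold change -0.68 ± 0.19, adjusted p = 0.0671, edgeR).

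In the MEIS1 contrast, (MEIS1-OE minus ctrl-OE) minus (MEIS1-KO minus ctrl-KO) on the log2 scale, CDH20 had a value of 1.43 ± 0.29 (adjusted p = 0.00138, edgeR). It had 1.49 ± 0.29 in the MEIS2 contrast (adjusted p = 0.00122, edgeR). Both held in all 13 alternative fits. The 2 contrasts share the ctrl-OE and ctrl-KO libraries, and CDH20 was lower in ctrl-OE than in ctrl-KO (log2 fold change -1.42 to -1.24 over these fits). That gap between the controls enters both contrasts. The CDH20 medians given above for MEIS1-OE, MEIS2-OE, MEIS1-KO and MEIS2-KO lay between those of the controls and closer to each other than the controls were. Beside CDH20, CDH3 (-0.75 ± 0.16, adjusted p = 0.00297) passed in the MEIS1 contrast and PCDH9 (0.38 ± 0.10, adjusted p = 0.0356) in the MEIS2 contrast. The call of PCDH9 was lost in 7 of the 13 alternative fits (adjusted p up to 0.161). These 2 of 90 genes in each contrast compare with 3.48% (2.35% higher, 1.14% lower) and 2.57% (1.39% higher, 1.18% lower) of all genes. Without the 3 libraries that stood apart, 6 genes passed in the MEIS1 contrast, with CDH24, CDH8, PCDH1 and PCDH8 added, and 8 in the MEIS2 contrast, with CDH2, CDH5, CDH8, PCDH18, PCDH19 and PCDH8 added.

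**Figure D2:**
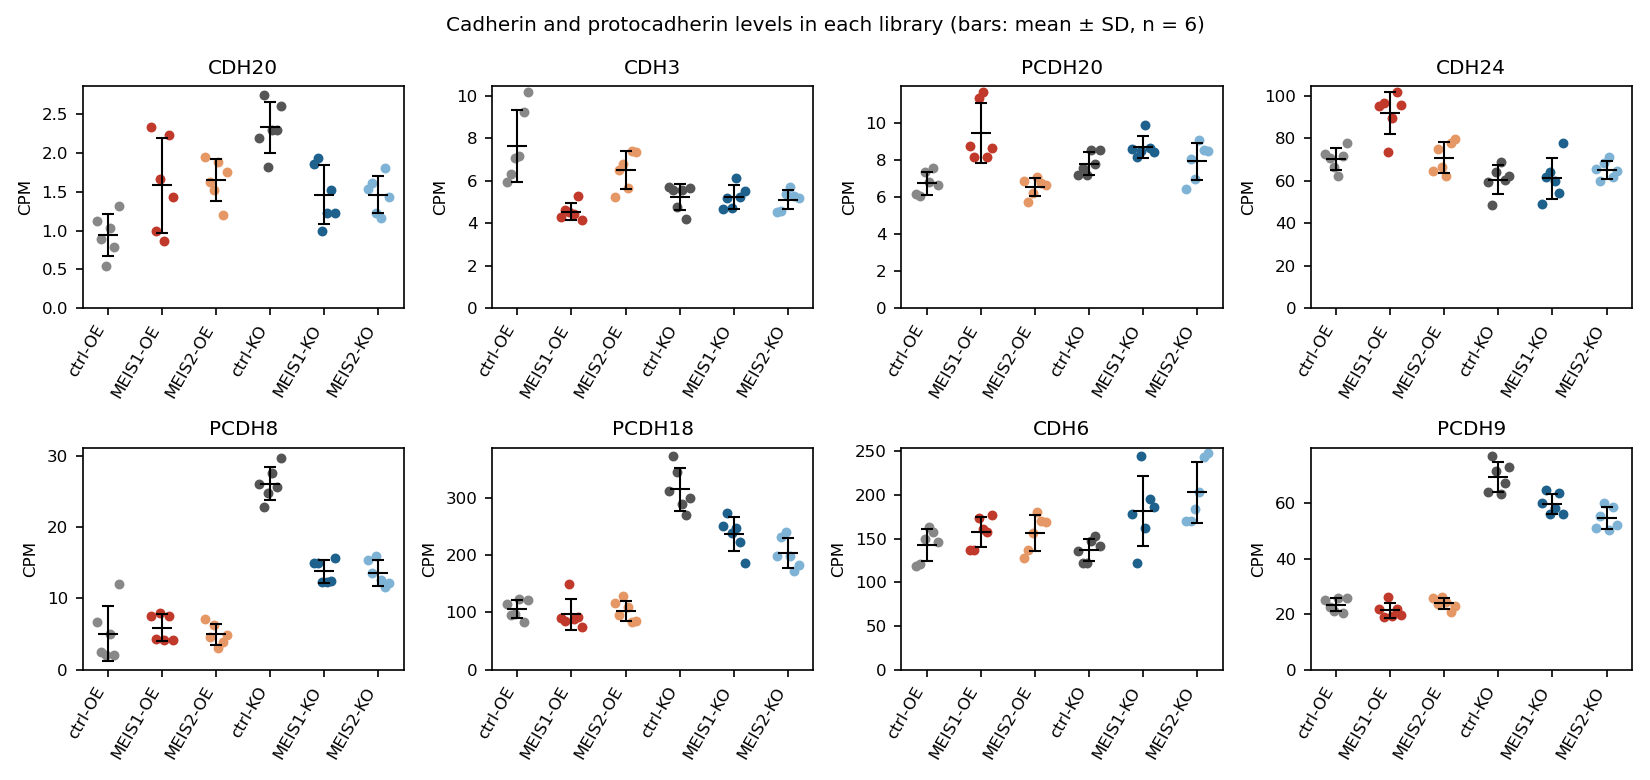
CPM of 8 genes in each of the 36 libraries, grouped by treatment, with mean ± SD (n = 6). CDH20 is above its control in both OE groups and below it in both KO groups. CDH3 is lower in MEIS1-OE than in ctrl-OE and MEIS2-OE, and its MEIS1-OE values overlap those of the KO groups. PCDH8, PCDH18 and PCDH9 are highest in ctrl-KO.

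MEIS2-OE against ctrl-OE gave CDH20 as the one gene that passed, 1 of 90 against 1.35% of all genes (1.07% higher, 0.279% lower), and 1 gene passed without the libraries that stood apart as well. MEIS1-OE could also be compared directly with MEIS2-OE. There 6 of 90 genes (5 higher, 1 lower) passed against 7.75% of all genes (4.93% higher, 2.82% lower), and 8 without the libraries that stood apart. PCDH20 (log2 fold change 0.53 ± 0.09, adjusted p = 5.81e-05), PCDH1 (0.45 ± 0.08, adjusted p = 0.000162), CDH24 (0.38 ± 0.08, adjusted p = 0.00208) and CDH11 (0.39 ± 0.11, adjusted p = 0.0147) were higher in MEIS1-OE, and CDH3 (-0.52 ± 0.11, adjusted p = 0.00159) was lower. PCDHAC2 was higher as well, at 5.43, 6.18 and 6.68 CPM in MEIS1-OE against 4.77, 4.95 and 5.23 CPM in MEIS2-OE (lowest, median and highest), without overlap (0.31 ± 0.09, adjusted p = 0.0131, edgeR). The calls of CDH11 and PCDHAC2 were lost in 3 and 2 of the 13 alternative fits (adjusted p up to 0.0683 and 0.0986). CDH20, for which both groups had passed against their control, gave no call here.

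MEIS2-KO against ctrl-KO asked which genes differ when MEIS2 is cut. As ctrl-KO had non-targeting guides, cutting of DNA at a target and loss of the targeted gene cannot be told apart in either knockout. The delta protocadherins PCDH8, PCDH9, PCDH18 and PCDH19 fell, as did CDH2 and CDH20, while the type II cadherins CDH5, CDH6 and CDH8 rose. These 9 of 90 genes (3 higher, 6 lower) compare with 10.0% of all genes (4.04% higher, 5.98% lower), so their share equals that of all genes. None of the libraries that stood apart belonged to MEIS2-KO or ctrl-KO. Leaving them out of the fit that all groups share gave 11 genes here, with PCDH12 and PCDH17 added.

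PCDH18 had 269, 305 and 372 CPM (lowest, median, highest) in ctrl-KO and 172, 198 and 239 CPM in MEIS2-KO. The ranges were separate, with a log2 fold change of -0.63 ± 0.12 (adjusted p = 0.000994, edgeR). MEIS1-KO lay between, at 186, 243 and 273 CPM, and did not pass (-0.41 ± 0.12, adjusted p = 0.0912, edgeR). PCDH9 had 63.2, 69.4 and 77.1 CPM in ctrl-KO and 50.4, 53.6 and 60 CPM in MEIS2-KO, also separate (-0.35 ± 0.07, adjusted p = 0.00124, edgeR). PCDH19, a gene of a sex-linked epilepsy, fell from a median of 93.7 to 72.4 CPM without overlap (-0.35 ± 0.08, adjusted p = 0.00513, edgeR).

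PCDH8, also called paraxial protocadherin, was lower than in controls in both knockouts. It had 22.9, 25.9 and 29.8 CPM in ctrl-KO, 12.3, 13.7 and 15.7 CPM in MEIS1-KO and 11.6, 13.1 and 16.0 CPM in MEIS2-KO. All 6 libraries of each knockout lay below all 6 controls. The log2 fold change was -0.92 ± 0.23 in MEIS1-KO (adjusted p = 0.0274, edgeR) and -0.95 ± 0.23 in MEIS2-KO (adjusted p = 0.00604, edgeR), against the same controls. The former call was lost in 4 of the 13 alternative fits (adjusted p up to 0.130) and the latter in 0.

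CDH6, a type II cadherin of early neuroepithelium and kidney, moved upwards. It had 122, 139 and 153 CPM in ctrl-KO and 170, 194 and 248 CPM in MEIS2-KO, with no overlap (0.57 ± 0.12, adjusted p = 0.00122, edgeR). MEIS1-KO spanned 122, 182 and 245 CPM and did not pass (0.41 ± 0.12, adjusted p = 0.0667, edgeR), 5 of its 6 libraries lying above all controls. CDH8 had 40.8, 45.6 and 49.3 CPM in ctrl-KO, 49.6, 52.8 and 58.6 in MEIS1-KO and 51.2, 54.5 and 57.3 in MEIS2-KO. It rose in both (0.25 ± 0.07, adjusted p = 0.0385, and 0.28 ± 0.07, adjusted p = 0.00508, edgeR), the former call being lost in 4 of the 13 alternative fits with adjusted p up to 0.221.

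CDH5, or VE-cadherin, had 18.7, 19.8 and 21.8 CPM in ctrl-KO and 22.9, 25.4 and 28.4 CPM in MEIS2-KO (0.36 ± 0.09, adjusted p = 0.0113, edgeR), a call lost in 1 of the 13 alternative fits (adjusted p 0.0657). The summed level of the 4 endothelial markers was 23.1 to 28 CPM in ctrl-KO, most of it TEK, and 21.9 to 29.6 CPM in MEIS2-KO. Singly, TEK (0.07 ± 0.07), VWF (0.39 ± 0.18) and PECAM1 (0.19 ± 0.16) were higher and CLDN5 (-0.67 ± 0.72) lower in MEIS2-KO. None of the 4 passed. CDH2 had 637, 693 and 723 CPM in ctrl-KO and 578, 611 and 640 CPM in MEIS2-KO. These overlapped, and the small decrease (-0.16 ± 0.05, adjusted p = 0.0333, edgeR) was lost in 6 of the 13 alternative fits (adjusted p up to 0.143). PAX6 (-0.52 ± 0.10), FABP7 (-0.36 ± 0.08) and SOX1 (-0.33 ± 0.09), 3 of the 8 neural stem cell markers, also fell and VIM (0.33 ± 0.07) rose in MEIS2-KO. KRT18 (0.73 ± 0.23), the mesenchymal marker COL1A1 (1.06 ± 0.22) and the neuron marker GAP43 (0.45 ± 0.11) also rose, and the neuron marker DCX fell (-1 ± 0.32). The other mesenchymal markers did not pass and went both ways, such as PDGFRB (0.14 ± 0.08) and LUM (-0.19 ± 0.12). The part of the markers in the cadherin results was not tested. In bulk RNA fewer cells making a gene and less RNA per cell cannot be told apart.

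MEIS1-KO against ctrl-KO gave the 2 calls named above, PCDH8 lower and CDH8 higher, of 90 genes against 1.46% of all genes (1.03% higher, 0.432% lower), and the same number without the libraries that stood apart. The replicate block and DESeq2 gave 5 and 4. PAX6 fell (-0.42 ± 0.10) and VIM (0.25 ± 0.07) and COL1A1 (0.82 ± 0.22) rose in MEIS1-KO, while the other listed markers did not pass. The part of the markers in these calls was not tested. In the direct comparison of MEIS1-KO with MEIS2-KO 0 of 90 genes passed by edgeR and 0 by DESeq2, against 0.0152% of all genes (0.0102% higher, 0.00508% lower), with 2 genes at an unadjusted p under 0.05, CDH2 and CDH7, and 0 passed without the libraries that stood apart. Levels of PCDH18, CDH6 and PCDH9, which passed in one knockout only, were thus not shown to differ between the knockouts.

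**Figure D3:**
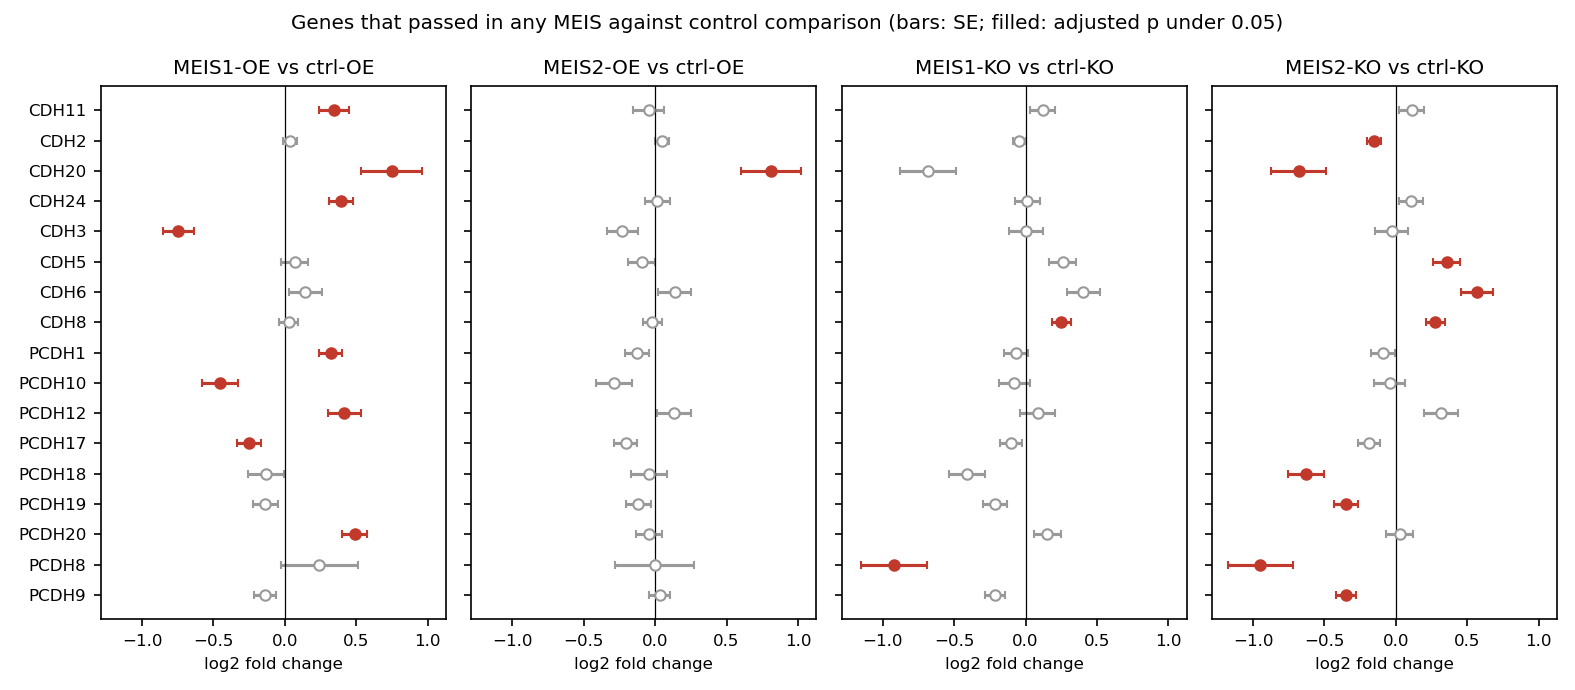
Log2 fold changes with SE (x axis) of the 17 genes that passed in any of the 4 comparisons with a control, 1 panel per comparison and filled red where the adjusted p was under 0.05. The 9 filled points of MEIS1-OE and the 9 of MEIS2-KO have CDH20 in common, at 0.75 and -0.68.

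Clustered protocadherins gave no call when MEIS1 or MEIS2 was raised or cut. By edgeR 0 of the 56 tested passed in each of the 4 comparisons with a control and in both contrasts, and DESeq2 gave 0 in each as well. Of all genes 9.1% passed in MEIS1-OE, 1.35% in MEIS2-OE, 1.46% in MEIS1-KO, 10.0% in MEIS2-KO, 3.48% in the MEIS1 contrast and 2.57% in the MEIS2 contrast. At an unadjusted p under 0.05 there were 2 in MEIS1-OE, 2 in MEIS2-OE, 4 in MEIS1-KO, 5 in MEIS2-KO, 2 in the MEIS1 contrast and 3 in the MEIS2 contrast. In the 4 comparisons with a control their median log2 fold changes were 0.00, -0.05, 0.04 and 0.03. Many clustered genes were among the 43 genes with a mean under 1 CPM, where depth limits which changes could pass. The strongly read genes had narrow spreads. PCDHB2, for example, had 46.7 to 51.8 CPM in ctrl-OE, 47.8 to 52.4 in MEIS1-OE and 43.1 to 50 in MEIS2-OE, and 56.6 to 65.4 in ctrl-KO, 56.4 to 61.5 in MEIS1-KO and 55.3 to 58.8 in MEIS2-KO. Fitting only the groups compared added PCDHB19P in MEIS1-KO and the MEIS1 contrast, and leaving out the libraries that stood apart added PCDHAC2 in MEIS1-OE.

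Genes known to act on these promoters were examined beside them. Of 11 tested regulators, 6 fell and 0 rose in MEIS2-KO, namely CTCF, the cohesin subunits STAG1, STAG2, SMC1A and RAD21, and the chromatin protein SMCHD1. Of all genes 5.98% were lower and 4.04% higher in that comparison. CTCF was at 141 to 152 CPM in ctrl-KO and 117 to 130 CPM in MEIS2-KO, without overlap (-0.26 ± 0.04, adjusted p = 1.32e-05, edgeR). STAG1 (-0.37 ± 0.06) and STAG2 (-0.28 ± 0.05), 2 alternative cohesin subunits, fell too. In MEIS1-OE 2 of the 11 fell, SMC1A (-0.14 ± 0.04) and SMCHD1 (-0.18 ± 0.06), and in MEIS1-KO CTCF (-0.20 ± 0.04) and STAG1 (-0.25 ± 0.06) fell. Of all genes 3.58% were lower in MEIS1-OE and 0.432% in MEIS1-KO.

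Among other genes of the superfamily, desmosomal cadherins, FAT and DCHS genes and calsyntenins, 24 of 25 listed were tested. In MEIS1-OE 3 rose and 1 fell, against 5.52% higher and 3.58% lower of all genes. FAT2, a giant atypical cadherin, had 845, 1006 and 1298 reads per library (lowest, median rounded down, highest) in MEIS1-OE, 48.9 ± 6.43 CPM (SD, n = 6), but 0 to 1 in ctrl-OE and 0 to 4 in each of the other groups. All MEIS1-OE libraries were far above every other library. Summed over the groups these were 6198 reads against 2, a ratio of 3331. Its 95% interval of 922 to 27515 covers counting error only (exact binomial). As MEIS1-OE used a single guide, effects of MEIS1 and of that guide at other sites cannot be told apart, and neither was tested. DSG2 fell (-0.59 ± 0.08, adjusted p = 4.08e-07, edgeR) from 13.2 to 19.2 CPM in ctrl-OE to 9.47 to 12.3 CPM, and FAT4 rose (0.40 ± 0.08, adjusted p = 0.000521, edgeR). In MEIS2-KO, where 5.98% of all genes were lower, DSG3 and FAT3 (-0.41 ± 0.13) fell, DSG3 with at most 3 reads in any library.

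Of 10 catenins and linkers, CTNND2 fell in MEIS1-OE (-0.36 ± 0.10, adjusted p = 0.0171, edgeR), the one call in that comparison. Of 9 transcription factors known to act on CDH1 or CDH2, SNAI2 rose in MEIS1-OE (0.44 ± 0.09, adjusted p = 0.000496, edgeR). In MEIS2-KO SNAI2 also rose (0.35 ± 0.09), and ZEB1 (-0.31 ± 0.06) and ZEB2 (-0.20 ± 0.05) fell. Of 8 proteases that cut cadherins, PSENEN, a gamma-secretase subunit, rose in MEIS2-KO (0.18 ± 0.06). The calls in these lists stand beside 9.1% of all genes that passed in MEIS1-OE and 10.0% in MEIS2-KO.

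The comparison of ctrl-OE with ctrl-KO gave the most calls among these genes. In ctrl-OE 44 of the 90 genes were lower and 5 higher than in ctrl-KO, while 51.4% of all genes passed, 27.5% higher and 23.9% lower. The median log2 fold change was -0.44 over the 90 genes and 0.05 over all genes. With an absolute log2 fold change above 0.58 as a further condition, 33 of 90 genes passed against 22.1% of all genes. With that condition 2 genes passed in MEIS1-OE (2.84% of all genes), 1 in MEIS2-OE (0.498%), 1 in MEIS1-KO (0.29%), 3 in MEIS2-KO (1.58%), 2 in the MEIS1 contrast (1.41%), 1 in the MEIS2 contrast (0.985%), and 0 between the overexpression groups (2.7%) or between the knockouts (0.0102%). The summed level of the 93 genes was 1158, 1239 and 1410 CPM (lowest, median, highest) in ctrl-OE and 1984, 2004 and 2069 CPM in ctrl-KO. Vector, number and amount of viruses, and the activation machinery cannot be told apart in this comparison. Without the libraries that stood apart 48 genes passed.

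Delta protocadherins had calls in one direction. All 5 delta-2 and 3 of 4 delta-1 genes were lower in ctrl-OE, against 23.9% of all genes. PCDH8 had 2.00, 3.78 and 12 CPM (lowest, median, highest) in ctrl-OE against 22.9, 25.9 and 29.8 in ctrl-KO, with a log2 fold change of -2.39 ± 0.25 (adjusted p = 1.77e-10, edgeR). The highest ctrl-OE value was that of replicate 6. PCDH18 had 82.5, 106 and 123 CPM in ctrl-OE against 269, 305 and 372 (-1.57 ± 0.13, adjusted p = 2.73e-13, edgeR).

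PCDH9 had 20.5, 23.7 and 25.9 CPM against 63.2, 69.4 and 77.1, the smallest p of these genes (-1.56 ± 0.07, adjusted p = 4.43e-20, edgeR). PCDH19 had a median of 32.6 CPM against 93.7 (-1.44 ± 0.09), PCDH17 19.8 against 47.6 (-1.20 ± 0.08), PCDH10 4.97 against 10.6 (-1.04 ± 0.12) and PCDH7 23.7 against 38.6 (-0.74 ± 0.06). None of these 7 genes had overlapping control ranges. PCDH1 was the delta-1 exception, at medians of 44.1 and 47.6 CPM, and PCDH20 had medians of 6.70 and 7.66 CPM (adjusted p = 0.0546, edgeR). PCDH15, a solitary gene of the inner ear and retina, was at a median of 1.28 CPM against 3.92 (-1.51 ± 0.23).

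Classical cadherins were split. CDH2 had 386, 433 and 483 CPM in ctrl-OE against 637, 693 and 723 in ctrl-KO, without overlap (-0.65 ± 0.05, adjusted p = 2.8e-14, edgeR). CDH4, or R-cadherin, had 13.7, 16.3 and 29.5 CPM against 35.7, 49.4 and 52.3 (-1.36 ± 0.13, adjusted p = 3.27e-11, edgeR), the highest ctrl-OE library again being replicate 6. CDH3 went the other way, with 5.94 to 10.2 CPM against 4.22 to 5.73 (0.54 ± 0.11, adjusted p = 7.32e-05, edgeR). The MEIS1-OE range of CDH3 given above thus lay below ctrl-OE but overlapped ctrl-KO.

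Of the 13 type II cadherins 7 were lower in ctrl-OE and CDH24 was higher, against 23.9% lower and 27.5% higher of all genes. CDH11 had 2.67, 3.33 and 3.80 CPM against 7.41, 9.87 and 11 (-1.54 ± 0.10, adjusted p = 2.44e-16, edgeR). CDH20 was lower (-1.31 ± 0.20), as were CDH8 (-0.84 ± 0.07), CDH10 (-0.75 ± 0.07) and CDH5 (-0.25 ± 0.09). CDH24 was higher by 0.21 ± 0.08 on the log2 scale (adjusted p = 0.0350, edgeR), a call lost in 4 of the 13 alternative fits. CDH6, the most strongly read of this family, had 119, 148 and 164 CPM in ctrl-OE and 122, 139 and 153 CPM in ctrl-KO, and did not pass.

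CDH7 and CDH15, also among the 93 genes, were picked for description after their values were seen. CDH7 (-1.39 ± 0.12) was lower in ctrl-OE. CDH15, the muscle cadherin, was the reverse at very low levels. It had 3 to 11 reads per library in ctrl-OE, 1 to 8 in MEIS1-OE and 2 to 7 in MEIS2-OE, but 1 read over all 6 libraries of ctrl-KO and 0 over those of each other knockout group. The 39 reads of ctrl-OE against 1 give a ratio of 32.5 with a 95% interval of 5.49 to 1314 for counting error (exact binomial).

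In the clusters 25 of 56 tested genes were lower in ctrl-OE and 2 higher, against 23.9% and 27.5% of all genes. In either direction 51.4% of all genes passed, and the share of clustered genes that passed was near that. Of the beta genes 11 of 19 were lower and 0 higher, and of the gamma genes 12 of 22 were lower and 0 higher. PCDHGB6 had 24.7, 28.2 and 33.4 CPM in ctrl-OE against 37, 39.4 and 41.5 (-0.47 ± 0.06, adjusted p = 6.9e-09, edgeR), and PCDHGA10 10.3, 12.4 and 14.6 against 19.5, 20.6 and 21.5 (-0.73 ± 0.07, adjusted p = 5.78e-11, edgeR). Neither pair of ranges overlapped. PCDHB2 was lower by a smaller amount (-0.31 ± 0.04, adjusted p = 2.25e-08, edgeR), and PCDHB5 had medians of 17.7 and 18.3 CPM and did not pass. In genes shown above with their promoter windows, the log2 fold changes were -0.64 ± 0.09 for PCDHB10, -0.54 ± 0.09 for PCDHB14 and -1.32 ± 0.17 for PCDHGA4.

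The alpha cluster had calls in both directions, with 2 genes lower and 2 higher of 15. Neither count exceeded the share of all genes (23.9% lower, 27.5% higher). PCDHAC1 was named after its values were seen. PCDHA4 (-0.31 ± 0.08) and PCDHA6 (-0.38 ± 0.11) were lower. PCDHAC1 and PCDHAC2, the last variable exons of the cluster, were higher. PCDHAC1 had 4.40, 4.63 and 5.19 CPM in ctrl-OE against 2.08, 2.28 and 2.51 in ctrl-KO (1.04 ± 0.13, adjusted p = 1.02e-08, edgeR). PCDHAC2 had 5.01, 5.33 and 5.67 CPM against 2.78, 3.37 and 3.56 (0.69 ± 0.09, adjusted p = 3.55e-08, edgeR). In both, all 6 ctrl-OE libraries lay above all 6 ctrl-KO libraries. The summed level of the alpha cluster was 28.1 to 35.0 CPM in ctrl-OE and 26.2 to 31.1 CPM in ctrl-KO, so that the cluster total overlapped while these single genes differed.

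For 24 of the 49 genes that passed between the controls, the groups of each system were also separate as a whole, and for the others, such as PCDH8, CDH3 and CDH20, they were not. Over the 18 OE and 18 KO libraries, the CPM ranges of 21 of the 90 genes were separate with OE lower, against 7.76% of all genes. They included CDH2, CDH4, CDH8, CDH10, CDH11, PCDH7, PCDH9, PCDH10, PCDH17, PCDH18, PCDH19, PCDHB2, PCDHGB6 and PCDHGA10. With OE higher they were separate for CDH15, PCDHAC1 and PCDHAC2, 3 of 90 against 6.92% of all genes. PCDHAC1 was at 4.24 to 6.27 CPM in the MEIS-targeted OE groups and at 1.54 to 3.65 CPM in the MEIS-targeted KO groups.

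**Figure D4:**
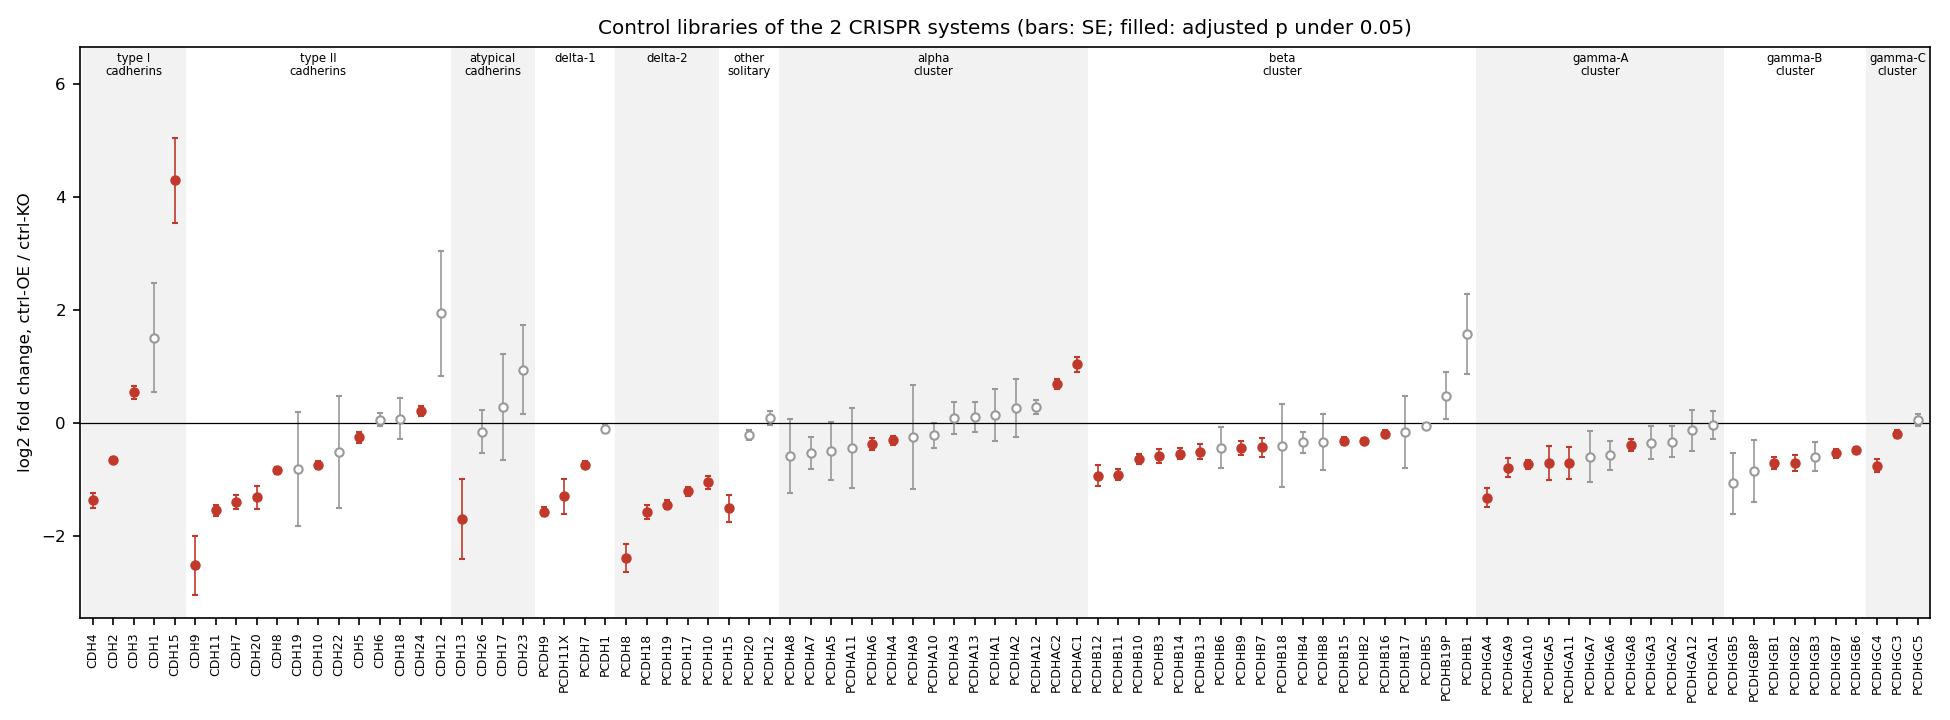
Log2 fold change with SE of ctrl-OE over ctrl-KO (y axis) for all 90 tested genes, ordered by family and filled red where the adjusted p was under 0.05. The 5 delta-2 protocadherins lie below -1, and in the alpha cluster PCDHAC1 at 1.04 and PCDHAC2 at 0.69 are the filled points above 0.

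Other genes moved with the cadherins between the controls, and their part was not tested. Of all genes 23.9% were lower and 27.5% higher in ctrl-OE. Of the 8 neural stem cell markers 7 were lower in ctrl-OE, among them SOX1 (-1.54 ± 0.09), SOX2 (-1.39 ± 0.11) and MSI1 (-0.80 ± 0.08), and their summed level was 2930 to 3799 CPM in ctrl-OE and 4334 to 4846 CPM in ctrl-KO. The 3 tested epithelial markers KRT18 (3.18 ± 0.18), KRT8 (1.80 ± 0.27) and EPCAM (0.65 ± 0.23) were higher, at summed levels of 6.75 to 8.97 CPM against 1.05 to 1.91 CPM, with CLDN4 at 0 in both groups. Of the neuron markers 3 of 5 tested were lower, of the endothelial markers 3 of 4 lower, of the astrocyte and oligodendrocyte lineage markers 1 higher and 1 lower each, and of the 5 mesenchymal markers 1 higher and 2 lower.

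The following counts also stand beside 23.9% of all genes lower and 27.5% higher in ctrl-OE. Of the catenins and linkers 7 of 10 were lower, led by PKP4 (-0.65 ± 0.05), CTNND2 (-1.34 ± 0.10) and VCL (-0.49 ± 0.05), and 1 was higher. Of the promoter regulators 8 of 11 were lower, led by SMC1A (-0.50 ± 0.04), DNMT3B (-0.51 ± 0.05) and SMC3 (-0.38 ± 0.05). Of the factors known to act on CDH1 or CDH2 5 of 9 were lower, led by ZEB2 (-0.81 ± 0.05), and 1 was higher. Proteases that cut cadherins were mostly higher, 5 of 8 against 1 lower, led by BACE1 (0.47 ± 0.04), NCSTN (0.39 ± 0.04) and PSENEN (0.52 ± 0.06). Of the other superfamily genes 8 of 24 were lower, such as FAT4 (-0.98 ± 0.08), and 4 higher, such as DSG2 (1.29 ± 0.08) and CLSTN3 (1.04 ± 0.10).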

How the data were processed

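RNA was poly-A selected and sequenced in pairs of 100 bases; per the study's methods the authors used STAR on the hg19 genome and then HTSeq 0.6.0 for counts of each gene. The STAR version is 2.4.2a in the methods and 2.7.0a, with Trimmomatic 0.39, in the submitters' processing notes. The deposited values are raw counts per gene symbol. Annotation and strand setting are not given in the sources used here.

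Counts were tested with edgeR 4.0.16 (quasi-likelihood, TMM) in 1 fit of all 36 libraries and 6 groups, on 19689 genes with at least 10 counts summed, with Benjamini-Hochberg adjustment over all of them. The script was checked on simulated data. CPM were computed from TMM-scaled library sizes. Exon lengths and GRCh37 positions came from GENCODE v44lift37, where 90 of the genes were found, leaving out exons shared with other genes of the list. Alternatives were RLE factors, other count filters, a replicate block, fits of the compared groups, DESeq2 1.42.0, a fold threshold and leaving out libraries. The genes, families and lists were chosen with earlier results of these data known. Named were 14 genes of interest, up to 8 with the smallest p that passed per comparison, the 4 with the highest mean CPM per cluster, and up to 3 per other list.

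Libraries of a group differed beyond sampling noise (chi-square per degree of freedom 7.24 to 15.2 over groups), and each was counted as a library of its own. This spread does not tell whether they came from separate cultures.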

Additional observations from a re-analysis of the deposited data

Results flagged for a closer look

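Within each group of 6 libraries, values of the named genes were examined for a library far from the other 5 by Dixon's criterion. Of 209 groups examined 21 gave such a value, where chance gives about 1 in 20, or 10.45. No explanation was tested.

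Several belonged to libraries that stood apart over all genes. In MEIS1-OE replicate 3 CDH10 was at 26.72 CPM, CDH8 at 32.06 and PCDH18 at 149.4, each the highest of the group, and PCDH1 at 38.05 was the lowest. In ctrl-OE replicate 6 CDH4 (29.54 CPM), PCDH19 (47.02 CPM) and PCDHGC3 (29.07 CPM) were the highest. In MEIS1-KO replicate 6 PCDHA6 was at 11.24 CPM and PCDHGB7 at 20.58 CPM, the highest, and CDH10 at 29.2 CPM, the lowest.

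The others were spread over libraries. PCDH7 was at 43.08 CPM in ctrl-KO replicate 6, PCDH1 at 40.16 CPM in ctrl-KO replicate 2, PCDH20 at 9.855 CPM in MEIS1-KO replicate 4 and PCDHB15 at 11.51 CPM in MEIS1-OE replicate 2. PCDHGC3 was at 22.71 CPM in MEIS2-KO replicate 1. PCDHGB7 was at 14.51 CPM in MEIS1-OE replicate 5, 9.39 CPM in MEIS2-OE replicate 2 and 15.01 CPM in MEIS2-KO replicate 1. CDH1, at 0 in the other libraries of these groups, was at 0.05378 CPM in MEIS2-OE replicate 4, 0.05786 CPM in ctrl-KO replicate 1 and 0.04496 CPM in MEIS2-KO replicate 4.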

How the results depend on the processing

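Of 766 values of single genes under an alternative, 686 kept their direction and side of the threshold, 80 kept the direction but no longer passed, and 0 reversed. Counts of genes that passed moved by over 1.5 times as follows. Fitting only the groups compared gave 3 in MEIS1-OE, 4 in MEIS1-KO and 5 in the MEIS2 contrast. DESeq2 gave 4 in MEIS1-KO and 5 in the MEIS2 contrast. Requiring an absolute log2 fold change above 0.58 gave 2 in MEIS1-OE, 1 in MEIS1-KO, 3 in MEIS2-KO, 1 in the MEIS2 contrast and 0 in MEIS1-OE against MEIS2-OE. The causes were not tested, apart from the stricter condition itself.

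Leaving out 1 replicate number from every group gave 5 to 9 in MEIS1-OE, 0 in MEIS2-OE whichever number was left out, 0 to 3 in MEIS1-KO, 6 to 10 in MEIS2-KO, 2 to 6 in the MEIS1 contrast, 1 to 3 in the MEIS2 contrast, 4 to 7 between the overexpression groups and 44 to 49 between the controls. Without MEIS1-OE replicate 3, ctrl-OE replicate 6 and MEIS1-KO replicate 6, chosen after seeing the data, counts were 10 in MEIS1-OE, 1 in MEIS2-OE, 6 in the MEIS1 contrast and 8 in the MEIS2 contrast.

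Same-numbered libraries of different groups deviated together only weakly (mean correlation 0.118 over 90 pairs, lowest -0.589). The mean was -0.0253 over 450 pairs with other numbers. Numbers were not taken as pairs in the main fit, so any part shared by number stayed in its spread. With the replicate block 5 genes passed in MEIS1-KO, 4 in the MEIS1 contrast and 5 in the MEIS2 contrast. Depth limits the 43 genes under 1 CPM.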
